A study of Mus musculus with 4 samples.

Results

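The miR-29 family comprises miR-29a, miR-29b and miR-29c, and its 3 entries (mmu-miR-29a, mmu-miR-29b and mmu-miR-29c, without an asterisk) were chosen by name from the 696 miRNA entries of each array. They were measured in mandibular molar tooth germs of untreated ICR mouse embryos, an outbred stock, at embryonic day 11, 12, 14 or 16 (E11, E12, E14, E16). Each stage has 1 array, made by end-labelling 100 ng of total RNA with Cy3, and the whole tooth germ was measured, so epithelium and mesenchyme are mixed. The sources used here do not say how many embryos or litters went into an array. With 1 array per stage there is no replicate check, no p-value and no spread between animals. Every error given after ± is the error the file states for that signal on 1 array.

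A miRNA guides the silencing machinery to messenger RNAs that carry a match to its seed, the bases 2 to 8 from its 5′ end. The miR-29 family is best known for acting on transcripts of the extracellular matrix, among them fibrillar collagens, elastin and fibrillin, and on transcripts of DNA methyltransferases. TGF-beta signalling lowers the family in fibroblasts, and in osteoblast cultures it accumulates as the cells mature. In the molar, these stages begin with a thickening of the dental epithelium, pass the bud and the cap and end at the bell, after which mesenchymal cells next to the epithelium become odontoblasts and lay down a matrix rich in type I collagen.

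The mature sequences, from RefSeq (GRCm38.p6), are shown because their likeness sets what each array entry can tell apart. Capitals mark the seed.
miR-29a: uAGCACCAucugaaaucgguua
miR-29b: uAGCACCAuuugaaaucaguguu
miR-29c: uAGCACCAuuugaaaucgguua

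All 3 carry the seed AGCACCA, which pairs with UGGUGCU in a target RNA, and no other of the 1679 mature mouse miRNAs in the table has it. Counted from the 5′ end, miR-29a and miR-29c differ by the substitution C10U alone and share 21 of 22 bases. Between miR-29b and miR-29c the substitutions are A18G, G21U and U22A, and miR-29b is 1 base longer, 23 against 22. Hybridisation of miR-29c to the miR-29a entry, or the reverse, was not tested. miR-29b ends in AGUGUU, a hexamer known for directing this miRNA to the nucleus. Of the 1679 mature sequences 2 end in it (0.119%), and miR-29a and miR-29c do not.

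The family is encoded by 4 genes in 2 pairs. On the minus strand of chromosome 6 lie Mir29a (chr6:31062660-31062747) and Mir29b-1 (chr6:31063023-31063093), 275 bases apart. On the plus strand of chromosome 1 lie Mir29b-2 (chr1:195037040-195037120) and Mir29c (chr1:195037547-195037634), 426 bases apart. In the RefSeq gene table the chromosome 1 pair overlaps the long noncoding RNA gene A330023F24Rik, and no gene other than the miRNAs themselves overlaps the chromosome 6 pair. No further miRNA gene was listed within 10 kb of either pair. The 2 miR-29b hairpins are printed with the mature arm in capitals, since that arm is the same in both and 1 array entry reads their sum.
Mir29b-1: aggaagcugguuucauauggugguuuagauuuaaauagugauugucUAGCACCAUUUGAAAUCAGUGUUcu
Mir29b-2: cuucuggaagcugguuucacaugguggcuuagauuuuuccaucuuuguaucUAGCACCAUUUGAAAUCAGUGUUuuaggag

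Across the course, the family went from no detected member in the earliest tooth germs to 3 detected members at the bell stage. None passed detection at E11 or E12, 1 did at E14 and all 3 did at E16. The mmu-miR-29a signal, which the file writes as 0.1 where an entry is undetected, was 0.1 at E11 and E12, 13.0 ± 3.77 at E14 and 59.5 ± 7.27 at E16. The mmu-miR-29c signal was 45.3 ± 6.69 at E16 and undetected on the 3 earlier arrays. For mmu-miR-29b the signal was 14.3 ± 4.38 at E16 and undetected before. These are deposited intensities, not scaled between arrays, and since probes differ in affinity they do not rank the members by abundance. Thus each member had its highest or only detected signal at E16, before any scaling. A value of 0.1 marks a signal too low to call, not an absent miRNA.

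**Figure D1:**
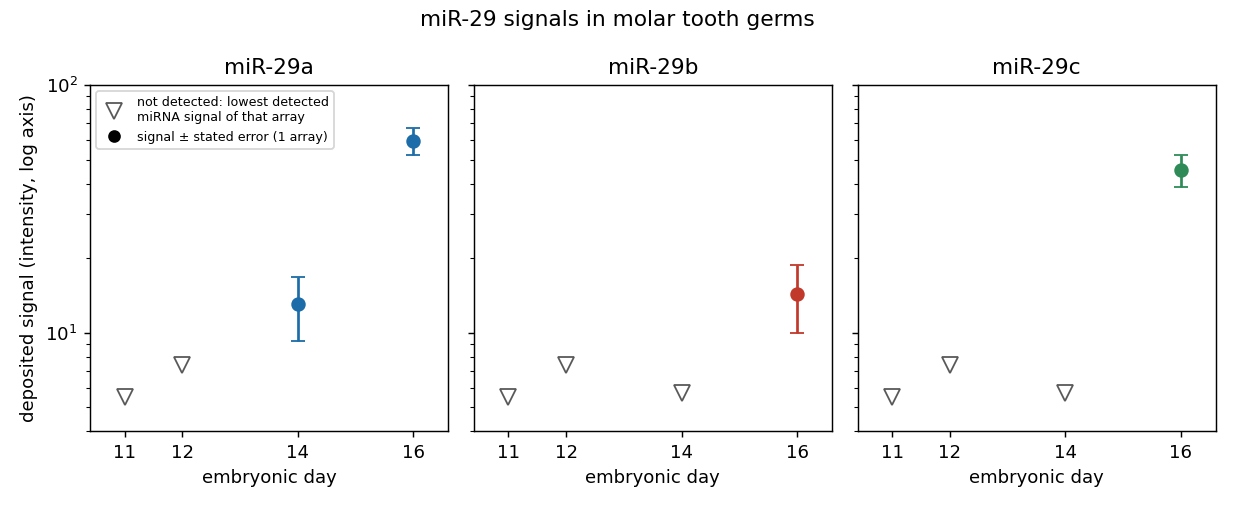
Deposited signal (intensity, log axis) of miR-29a, miR-29b and miR-29c against embryonic day, 1 array per stage; filled points are detected signals with their stated error, and open triangles stand at the lowest detected miRNA signal of an array on which the member was not detected. miR-29a reached 13.0 at E14 and 59.5 at E16, and miR-29b (14.3) and miR-29c (45.3) appear at E16 alone.

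The detections were not equally firm. At E16 the miR-29a signal was 8.19 times its error and the miR-29c signal 6.77 times. The miR-29a signal at E14 and the miR-29b signal at E16 stood at 3.46 and 3.27 times their errors, near the lowest ratio of any detected miRNA on those arrays (3.02 and 3.01). When a signal of at least 5 times its error was required, 2 of the 4 detections remained, miR-29a and miR-29c at E16. At E14 there were 20 detected miRNAs with a lower signal than miR-29a, out of 249, and at E16 there were 20 of 250 with a lower signal than miR-29b. The stated errors of these 2 signals were 28.9% and 30.6% of the signal, near the highest on those arrays (33.1% and 33.3%), where the median was 9.04% and 9.16%.

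The arrays themselves also differed along the course. They detected 209, 221, 249 and 250 miRNAs at E11, E12, E14 and E16, and the 75th percentile of the 197 miRNAs detected on every array was 1.44 higher at E16 than at E11 on the log2 scale. Differences below are log2 signals relative to that percentile. An undetected member was set against a floor, the lowest detected miRNA signal of the array in question (5.48, 7.43, 5.69 and 6.51 in stage order), and the later signal is given as a multiple of it. That floor is a nominal one and the multiple no lower limit on a fold. Entries detected at under 4 times their error had signals of up to 14.6 at E11, 18.2 at E12 and 15.4 at E14, so a member could have been undetected at a signal above it. Higher floors were therefore tried too: the 10th percentile of an array's detected signals and, computed after the data were seen, 3 times the error the member itself showed on the array where it was detected at its lowest signal.

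Only miR-29a was measured at more than 1 stage, and from E14 to E16, cap to bell, it was higher by 1.83 ± 0.45 on the log2 scale, or 3.56-fold (2.60-fold to 4.88-fold within 1 error). Among the 231 miRNAs with a detected signal at both E14 and E16, 17 (7.36%) passed 2-fold upward and 31 (13.4%) downward, around a median of -0.06; without scaling it was 36 and 28, around 0.30. 2 miRNAs, miR-203 (2.42 ± 0.16) and miR-141 (2.15 ± 0.18), had a larger difference upward than miR-29a, and none did after quantile normalization. Both are among the epithelial markers read below. The error of this difference is wide, 0.45 against a median of 0.18 over the 231, and 18 miRNAs had a wider one. Most of it lies in the E14 signal, whose own error was 0.42 on the log2 scale, against 0.18 for the E16 signal. Over the 6 scalings the miR-29a difference ran from 1.83 to 2.61, so it was above 2-fold under each of them; the upper value came from quantile normalization and from the authors' table.

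**Figure D2:**
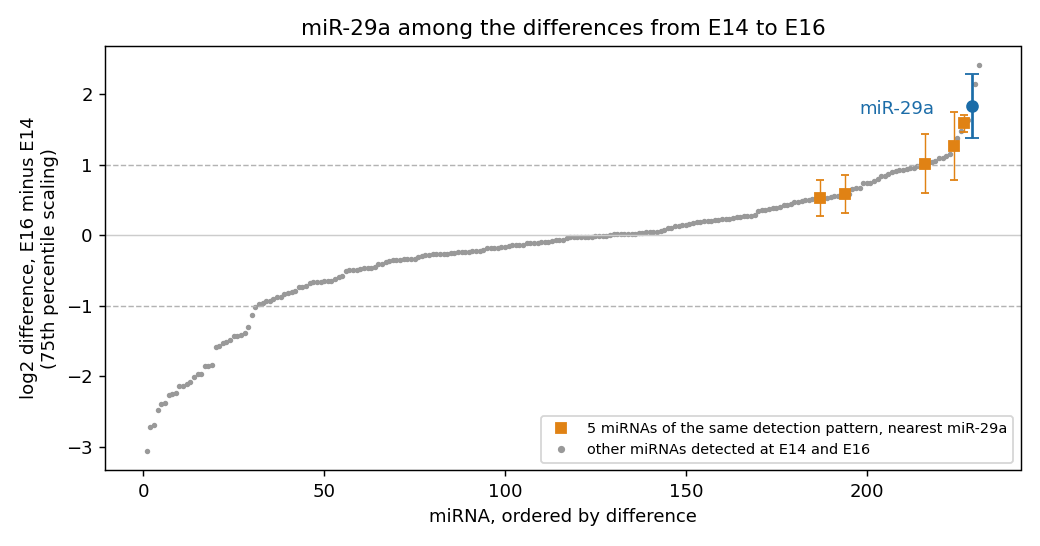
Log2 difference from E14 to E16 (75th percentile scaling) of the 231 miRNAs detected at both stages, in order; miR-29a is in blue with its combined error, 5 miRNAs of the same detection pattern are in orange, and dashed lines mark 2-fold. miR-29a, at 1.83, is exceeded by 2 miRNAs.

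miR-29c was undetected at the cap stage and detected at the bell stage at 6.77 times its error. Its E16 signal was 6.22 times the lowest detected E14 signal, 2.48 times the 10th percentile floor and 1.76 times the floor from its own error. Of the 447 miRNAs undetected at E14, 19 (4.25%) were detected at E16, among them miR-29b and miR-29c; counting only miRNAs undetected on all 3 earlier arrays it was 13 of 437 (2.97%). 4 of the 19 stood further above the floor than miR-29c. miR-29b stood at 1.97 times the lowest detected E14 signal, but at 0.78 of the 10th percentile floor and 0.85 of the floor from its own error, which gives no fold. Its detection at E16 is thus not shown to be a rise from E14.

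Set against the 2 earliest stages, miR-29a at E16 stood above the lowest detected signal under each of the 6 scalings. Of these, quantile normalization and the authors' table gave the same values (2.84 for E11 and 4.31 for E12). The higher floors were tried with the 75th percentile scaling only, and miR-29a stood above them too. With that scaling the miR-29a signal was 4.01 times the E11 floor and 4.71 times the E12 floor. It was 1.68 and 1.98 times the 10th percentile floor, and 1.94 and 3.09 times the floor from its own error. miR-29c at E16 stood at 3.06 times the lowest detected E11 signal, 1.28 times the 10th percentile floor and 0.84 of its own-error floor, so a fold over E11 is not shown. That last floor is a strict one for miR-29c, as it uses the error (6.69) of its sole detected signal, 45.3 at E16. Against E12 the 3 values were 3.59, 1.51 and 1.33. miR-29b stood at 0.97 of the E11 floor. Against E12 it stood at 1.13 times the lowest detected signal, but at 0.69 after quantile normalization and in the authors' table and at 0.48 and 0.64 of the higher floors, so no fold against either stage can be given for it. All 3 members are among 45 of 487 miRNAs (9.24%) undetected at E11 and detected at E16, and among 35 of 475 (7.37%) for E12 and E16. Without scaling the multiples of the lowest detected E11 signal were larger, 10.8 for miR-29a, 8.26 for miR-29c and 2.61 for miR-29b.

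**Figure D3:**
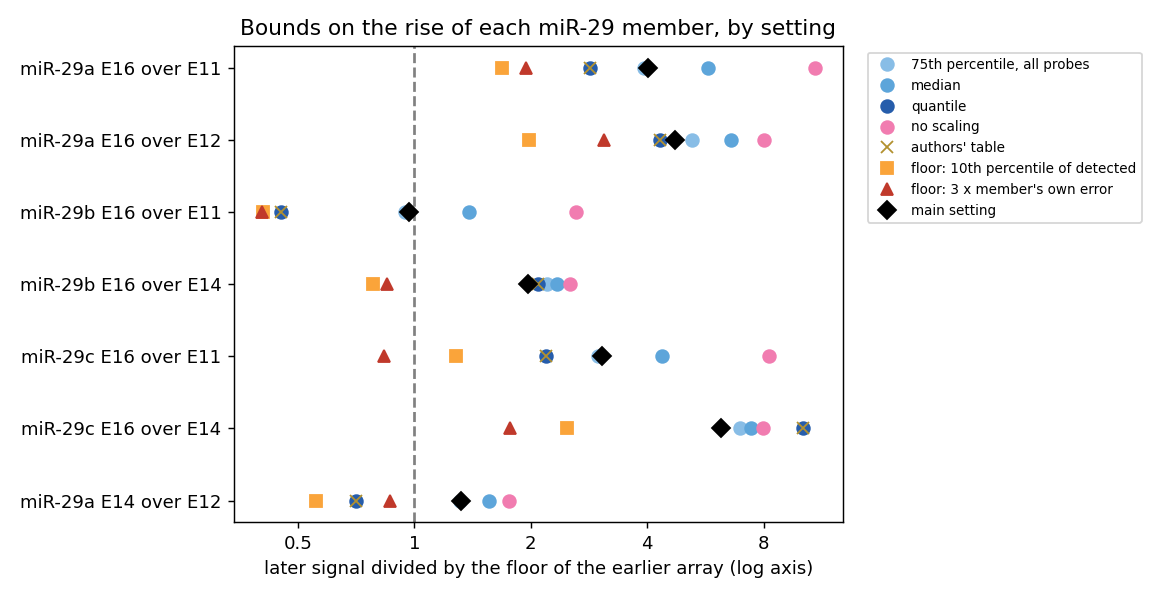
Later signal divided by the floor of the earlier array (log axis) for 7 comparisons of miR-29 members, each point being 1 setting: the black diamond is the 75th percentile scaling with the lowest detected signal as floor, circles and crosses are other scalings, and the orange square and red triangle are the higher floors. Points left of the dashed line at 1 give no fold. Points right of it are multiples of a nominal floor and no lower limits on a fold, although the title calls them bounds. miR-29a at E16 over E11 and E12 lies right of the line under each setting, while miR-29b at E16 over E11 lies left of it at 0.97 in the main setting.

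The start of miR-29a detection, between bud and cap, was less firm than its later difference. Its E14 signal was 1.32 times the E12 floor after scaling and 1.13 times the E11 floor. After quantile normalization it stood at 0.71 of the E12 floor, and with the floor from its own error at 0.87. A rise of miR-29a from E12 to E14 was therefore not resolved on these arrays. It is 1 of 37 miRNAs newly detected at E14 among the 475 undetected at E12 (7.79%).

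The minor arms did not pass detection. miR-29a*, miR-29b* and miR-29c*, which are cut from the same hairpins and usually degraded, were undetected on all 4 arrays, as were 424 of all 696 miRNAs.

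Families of shared seed give a view of how the miR-29 course compares with that of other families. Of 578 entries without an asterisk, 306 were matched to a mature sequence, and 38 seeds were held by at least 2 of these. Entries not matched by name, such as miR-30b and miR-30d, were left out. A family can therefore lack entries that are on the array, and the counts below cover matched entries only. In 29 of these families some entry was detected, in 24 of them already at E11. In 11, every matched entry was detected at every stage. 4 families had no detected entry at E11 and E12 and some at E16, and miR-29 was the 1 in which every entry was detected at E16. That rests on miR-29b: with signals of at least 5 times their error, an alternative added after the data were seen, 2 of 3 entries remained and no family was detected in full at E16 after nothing at E11 and E12. By the detection flag alone, the other late families were miR-221 with miR-222 and miR-1928 (1 of 3 entries), miR-146a with miR-146b (1 of 2) and miR-192 with miR-215 (1 of 2). Over all entries, 27 of the 467 undetected at E11 and E12 were detected at E16 (5.78%). Families were not tested against each other, and the miR-29 family was picked with these results known.

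**Figure D4:**
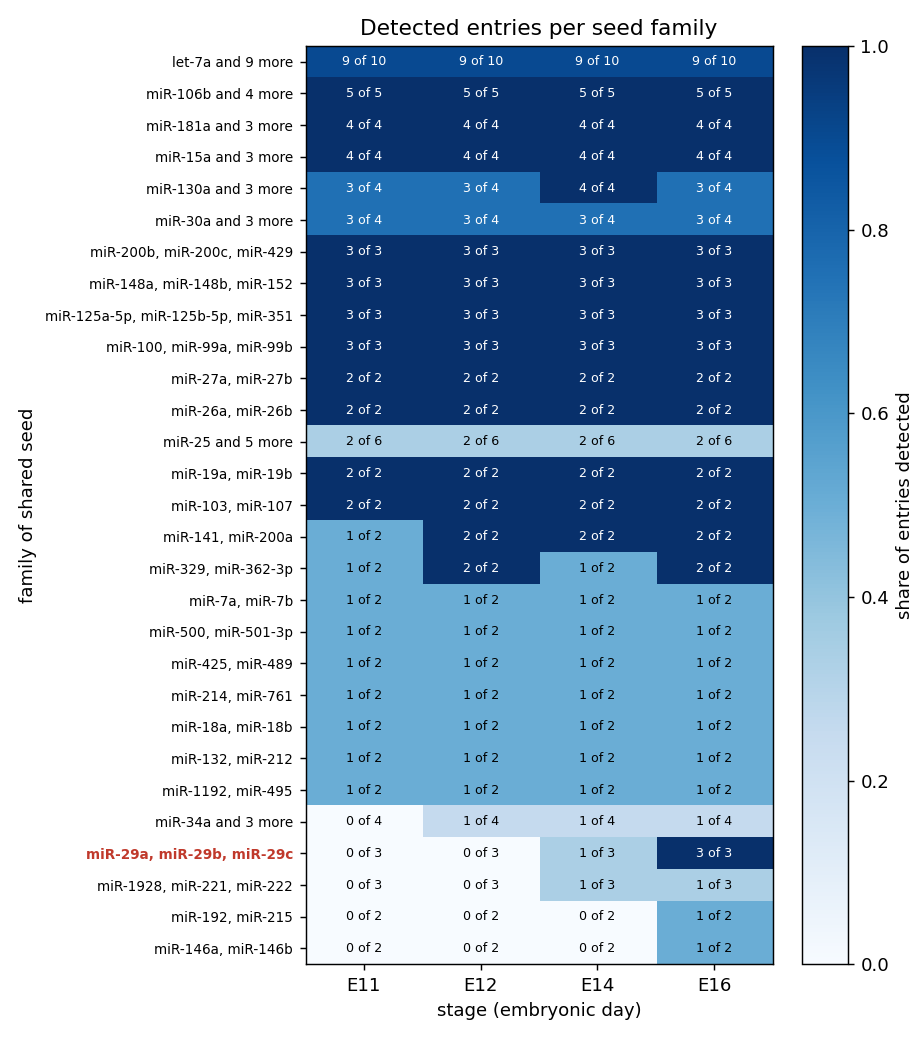
Number of detected entries in each of 29 families of shared seed at each stage (rows are families, columns are stages), with colour for the share detected. Only entries matched to a mature sequence are counted. The miR-29 row goes from 0 of 3 at E11 and E12 to 1 of 3 at E14 and 3 of 3 at E16, while most rows keep 1 colour throughout.

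The miRNAs most like each member were found by equal detection over the 4 arrays and then by the nearness of 1 difference. Besides miR-29a, 13 miRNAs were detected at E14 and E16 only. Nearest in the E14 to E16 difference was miR-875-5p, at 1.59 ± 0.12 (signals of 100.5 and 386.8). Next came miR-338-3p, whose deposited signals of 12.5 ± 3.75 and 38.6 ± 5.66 gave 1.27 ± 0.48. It lay 0.56 below miR-29a, whose own error was 0.45. miR-185 followed at 1.02 ± 0.42, miR-497 at 0.58 ± 0.27 and miR-221 at 0.53 ± 0.26. The likeness rests on 2 measured stages.

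Detection at E16 alone is a pattern that miR-29b and miR-29c each share with 12 other miRNAs, the other member among them. As the floor is that of the array, nearness here means a like E16 signal and nothing about abundance. Values are multiples of the lowest detected E14 signal, which is nominal as above. Nearest miR-29c (6.22) were the leukocyte miRNA miR-142-3p (8.84) and miR-193 (10.7). They were followed by miR-136*, miR-326 and miR-146a, at 2.88, 2.74 and 2.45. Nearest miR-29b were miR-192 (1.88), the oligodendrocyte miRNA miR-219 (2.07), the erythroid miR-144 (2.10), miR-455* (2.33) and miR-146a (2.45). The signals of these 5 at E16 were 13.7 to 17.8, with errors of 4.36 to 4.51, so like miR-29b they stood near the limit of detection.

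Other miRNAs known for acting on matrix or fibrosis were mostly detected from E11. Of 23 on that list, 18 were detected at E11 and 19 at E16, where 209 and 250 of all 696 miRNAs were, and 4 (miR-133a, miR-133b, miR-145 and miR-196a) at no stage. From E14 to E16, 2 of 18 passed 2-fold upward (4 without scaling) and 0 downward, beside 7.36% and 13.4% of all 231 miRNAs, and their median was 0.39 against -0.06 for all miRNAs (0.75 against 0.30 without scaling). The 2 were miR-140, a cartilage miRNA, at 1.05 ± 0.23 (signals of 26.0, 51.5, 44.0 and 116.7 in stage order) and miR-30e, of the family that acts on connective tissue growth factor, at 1.01 ± 0.16 (54.2, 142.3, 165.6 and 425.8). At the lowest of the 6 scalings miR-140 was at 0.98 and miR-30e at 0.89, short of 2-fold. miR-27a was at 0.92 ± 0.15, miR-21, known for promoting fibrosis, at 0.74 ± 0.15, and the mesenchymal miR-214 at -0.67 ± 0.16. miR-192 was the 1 member of the list that, like miR-29b and miR-29c, was detected at E16 alone.

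Of 19 miRNAs on the array that are known for acting on bone or tooth forming cells, 9 were detected at E11 and 11 at E16, beside the same 209 and 250 of 696. Of the 10 detected at both E14 and E16, miR-338-3p, named above, passed 2-fold upward and 0 downward, beside 7.36% and 13.4% of all, and the median was 0.87 against -0.06 (1.23 against 0.30 without scaling). Just under 2-fold were miR-22 (0.96 ± 0.17), miR-135b (0.95 ± 0.21), the p53 target miR-34a (0.93 ± 0.19), miR-31 (0.90 ± 0.15) and miR-218 (0.85 ± 0.17). Lower were miR-143 (0.56 ± 0.20), miR-205 (0.24 ± 0.15), miR-26a (0.22 ± 0.15) and miR-125b-5p (-0.19 ± 0.17). Without scaling, 6 of the 10 passed 2-fold upward, beside 36 of 231. All 8 miRNAs that, like miR-29, are known for acting on DNA methyltransferase genes were detected at every stage. 2 of these 8, miR-101b (1.13 ± 0.34) and miR-140, passed 2-fold upward from E14 to E16 (5 without scaling) and 0 downward, beside 17 and 31 of all 231 (36 upward without scaling). Their median was 0.82 against -0.06 for all (1.18 against 0.30 without scaling). miR-101a stood at 0.96 ± 0.33, miR-152 at 0.84 ± 0.18 and miR-148a at 0.80 ± 0.15. Lower were miR-143 at 0.56 ± 0.20, miR-148b at -0.06 ± 0.27 and miR-342-3p at -0.34 ± 0.16. The lists overlap: miR-143 is on all of them, miR-140 on this and the matrix list, miR-26a on the matrix and the bone or tooth list. Their medians are therefore not separate observations.

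Markers of the tissue and of other cells were read beside the miR-29 signals. Of all 696 miRNAs, 209, 221, 249 and 250 were detected in stage order, and 424 were detected at no stage. Epithelial markers were detected throughout (6 of 7 at E11 and 7 of 7 from E12), as were 8 of 9 mesenchymal ones. The summed epithelial signal was 1795, 3382, 5363 and 9364 in stage order, and the mesenchymal sum 11015, 17138, 11322 and 13052, as deposited. miR-205 gave 5317 of the epithelial sum at E16. These sums and those below are not scaled, and the 75th percentile was 1.44 higher at E16 than at E11, so they do not show cell content. After scaling, the median difference from E14 to E16 was 0.55 for epithelial, -0.04 for mesenchymal, 0.78 for cartilage and 0.64 for endothelial markers, against -0.06 for all miRNAs. The cartilage and endothelial medians rest on 2 entries each, the arms of 1 hairpin. Past 2-fold upward were 3 of 7 epithelial markers, miR-203 (2.42 ± 0.16), miR-141 (2.15 ± 0.18) and miR-200a (1.02 ± 0.17). So were 1 of 8 mesenchymal and 1 of 2 cartilage markers (miR-140 in both) and 0 of 2 endothelial ones, beside 17 of all 231. In these sets 0 passed 2-fold downward, beside 31 of all 231. Muscle markers, 7 of 7, were undetected at every stage, beside 424 of all 696 miRNAs. Leukocyte markers went from 0 of 5 detected at E11 to 1 at E12 and E14 and 2 at E16, with summed signals of 0, 17.6, 32.6 and 146.8; miR-142-5p, miR-150 and miR-155 were undetected throughout. Of 3 erythroid markers 1 was detected up to E14 and 2 at E16 (sums of 404, 422, 665 and 1230), and miR-486 at none. miR-451, which makes up nearly all of that sum, was at 0.51 ± 0.15 from E14 to E16 after scaling. Cartilage markers, 2 of 2 at every stage, summed to 87.3, 141.2, 126.7 and 266.8, and the endothelial pair to 239.8, 445.5, 427.0 and 791.4. Of 8 neural markers 2 were detected at E11 and E14, 3 at E12 and 4 at E16, while miR-124 and miR-9 were undetected throughout. Detection also rose over all miRNAs and these sets are small, so the counts do not show cell content either. The part of these cells in the miR-29 signals was not tested, and in a whole tooth germ more cells that express a miRNA and more of it per cell cannot be told apart.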

How the data were processed

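Total RNA was labelled with Cy3 by ligation and hybridised to Agilent miRNA arrays, per the labels' protocols. The deposited files give, per the file headers, a total gene signal for 718 features (696 miRNAs, 22 controls), an intensity, with its error and a detection flag; undetected features are written as 0.1 with an error of 1. Scanner software and array design are not named. In the authors' deposited value table of the series the intensity is linear and uncentred. Its detected values matched quantile normalization of the signals within 0.1%; column medians were 0.1 over all miRNAs and 123, 106, 83.7 and 83.0 over detected ones in stage order.

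Computed here (Python 3.11.15, pandas 2.3.3): control features were left out, log2 signals were taken relative to the 75th percentile of the 197 miRNAs detected on all 4 arrays, and errors of 2 stages were combined in quadrature. At least 2-fold is a rule of size. The scaling was tested on simulated data with 1 shift for all miRNAs of an array and changes drawn up or down with even odds. The measured changes were less even (17 up and 31 down from E14 to E16), so that test cannot settle the choice of scaling. Precision is limited by having 1 array at each stage. Alternatives were 5 other scalings, other floors, a stricter detection and other size rules. Named were the members, their minor arms and, for each member, the 5 miRNAs of like detection and nearest difference. Up to 6 per list were named by size. For the bone or tooth and the DNA methyltransferase lists, the lower members detected at E14 and E16 were named as well. Markers, undetected list members and late families were named because they were few. The members and lists were chosen with earlier results of these data known. Arms of entries without one follow current miRNA names.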

Additional observations from a re-analysis of the deposited data

How the results depend on the processing

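The miR-29a difference from E14 to E16 stayed within its error under 3 scalings and was 2.61 after quantile normalization and in the authors' table. The ratio of miR-29a at E16 to the E11 floor (4.01) was 5.74 with median scaling, 2.84 by quantile normalization and in the authors' table, 10.8 without scaling, 1.68 with the 10th percentile of detected signals as floor and 1.94 with its own-error floor, an alternative added after seeing the data. To E12 (4.71) it was 6.60 with median scaling, 8.01 without scaling, 1.98 with the 10th percentile floor and 3.09 with the own-error floor. For miR-29c over E11 (3.06) the values were 4.37, 2.19 (quantile and authors' table), 8.26 without scaling and 1.28 with the 10th percentile floor. Over E14 (6.22) they were 7.40, 10.1, 7.96 and 2.48, and 1.76 with the own-error floor. miR-29b over E11 exceeded the floor with median scaling (1.38) and without scaling (2.61) alone. Of 49 alternative ratios, 12 were not above 1 and gave no fold, 3 with the 10th percentile floor and 4 with the own-error floor.

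Of miRNAs at least 2-fold higher from E14 to E16, 17 in the main setting, there were 28 with the percentile over all probes, 30 with median scaling, 36 without scaling and 11 at 5 times the error. There were 30 with undetected values at the floor, and 5 at 3-fold or more, against 20 lower at 3-fold or more (31 at 2-fold). At 5 times the error the miR-29 detections fell from 4 to 2, and seed families first seen after E12 and complete at E16 from 1 to 0. Counts of newly detected miRNAs moved by less than 1.5 times. The planned floor from the error of an undetected probe was not run, as the files write 1 for all of them. No paired analysis was possible because each stage has 1 array. Depth is not defined for arrays; a signal near 3 times its error is the limit here.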
